A study of Mus musculus with 3 samples.

Results

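The peaks described here are endogenous Utf1 peaks of KH2 cells that lay crowded together on the autosomes. Each autosome was divided into fixed windows of 1 Mb, and a window was called clustered where it held 12 or more peak summits of the endogenous list. Of 2425 windows, 65 met this minimum (2.68%), and they held 1083 of the 9612 autosomal endogenous peaks, 11.3%. The whole endogenous list has 10506 peaks and the list from tagged Utf1 has 152608. KH2 is a mouse embryonic stem cell line, kept here in standard serum medium with 15% FBS and LIF, and per the labels' protocols on a layer of irradiated mouse fibroblasts, whose chromatin may be in the samples. The series holds 3 libraries, 1 per group. They are a precipitation of endogenous Utf1, a precipitation of biotin-tagged Utf1 and a whole-cell extract without antibody, all from KH2 cells under the same culture label. The labels name the same Utf1 antibody for both precipitations, while the protocol describes streptavidin beads for the tagged protein. The sources used here do not give the way in which the tagged protein was expressed. The whole-cell extract was not analysed here.

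Pluripotent cells and germ cells make Utf1, a protein that binds tightly to chromatin and is named in full undifferentiated embryonic cell transcription factor 1. It is known in embryonic stem cells for limiting the activity of genes that carry both activating and repressive histone marks, and for being needed for proper differentiation. In chromatin immunoprecipitation with sequencing, DNA fragments bound by a protein are enriched and mapped, and a peak is a stretch in which a caller found more mapped fragments, here called tags, than its background. The summit is the position of highest signal within a peak.

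The number of summits chose the windows, so every value from the endogenous list below describes the clusters and was not tested. The biotin list played no part in the choice. Each group has a single library, so differences have no replicate check and carry no p-value. Windows and neighbouring peaks are not independent of each other. The depth of the libraries is not known. Peaks of the endogenous list hold 276084 tags in all and those of the biotin list 14128799. Shares are given with exact Clopper-Pearson intervals at 95%, which cover counting error only. Coordinates are mm9, 1-based.

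Most windows held few summits. The most frequent number was 2, in 421 windows, and 183 windows held none. Toward the upper end the numbers thinned out gradually, with 44 windows at 10 summits, 32 at 11, 16 at 12 and 12 at 13. Of the clustered windows, 36 held 12 to 14 summits and 29 held 15 or more. No window held between 27 and 59 summits, and the windows with 59 and 65, which adjoin on chromosome 4, stood apart from all others.

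**Figure D1:**
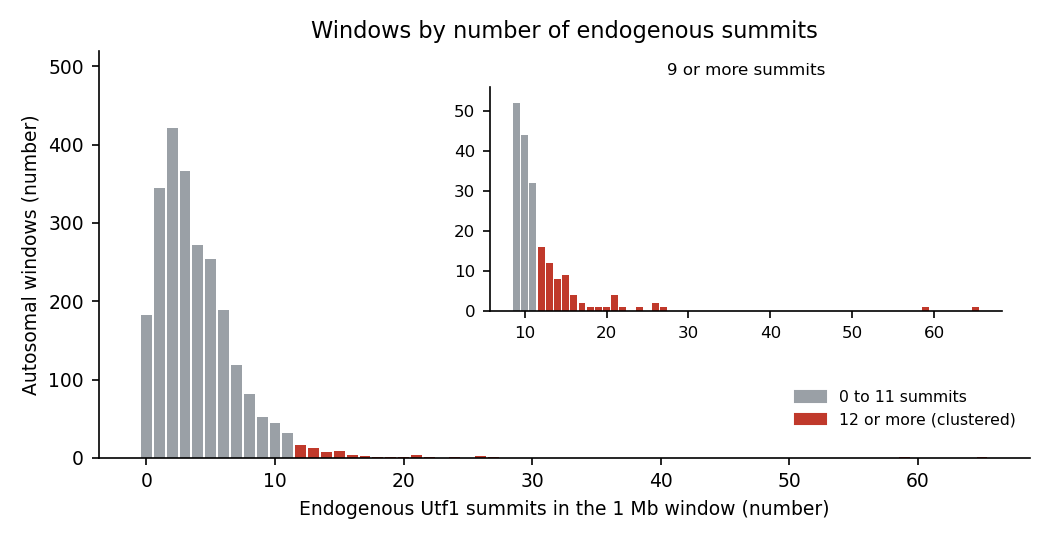
Number of autosomal 1 Mb windows (vertical axis) by the number of endogenous Utf1 summits in the window (horizontal axis), with an inset for 9 or more summits; red bars are the 65 clustered windows with 12 or more. The 12-summit minimum falls within a smooth decline, from 32 windows at 11 summits to 16 at 12, and only the windows with 59 and 65 summits lie apart.

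Peak values were alike on both sides of the minimum. The 32 windows just below it, with 11 summits, and the 16 just inside it, with 12, had the same median of 14 tags, the same median listed fold of 1.57 and the same median width of 594 bp per peak. They held a median of 20 and 23 biotin peaks, and 17.6% and 17.2% of their endogenous peaks overlapped a biotin peak.

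Clustered windows lay on 17 of the 19 autosomes. Chromosomes 3, 4 and 14 held 7 each, while chromosomes 12 and 15 held none and chromosomes 11, 18 and 19 held 1 each. Relative to the number of windows, chromosome 14 had the largest share, 5.69%, followed by chromosome 16 with 5.21% and chromosome 4 with 4.58%. On chromosome 4 the clustered windows held 195 of 716 endogenous peaks, 27.2%, and on chromosome 14 they held 130 of 522, 24.9%. On chromosome 1, the longest, 3 of 195 windows were clustered, with 38 of 800 peaks.

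Many of the clustered windows lay near the start of the chromosome. Mouse autosomes have their centromere close to an end, and the numbering of the assembly begins there with a stretch that holds no listed peak summit. The smallest listed start in either list was 2999840, on chromosome 11, but no summit lay below 3 Mb. Because windows were assigned by summit, the window from 3 to 4 Mb was the first on every autosome. It was clustered on 8 of 19 autosomes (chromosomes 3, 4, 6, 9, 14, 16, 17 and 18), 42.1%, against 57 of the other 2406 windows, 2.37%. In these 8 windows the number of summits was 22, 18, 15, 16, 26, 21, 20 and 15, in the order of the chromosomes. On the other 11 autosomes the same window held 3 to 9. Over the first 20 windows of each chromosome, 35 of 380 were clustered (9.21%), against 30 of 2045 further along (1.47%), so that 53.8% of the clustered windows lay in this stretch.

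Clustered windows often adjoined each other. Among the 115 windows that lay beside a clustered window, 25 were clustered themselves (21.7%), against 40 of the 2310 others (1.73%). The 65 windows formed 49 separate places. Of these, 40 were single windows, 5 were pairs, 3 were runs of 3 windows and 1 was a run of 6. The 90 windows beside a clustered window that did not reach the minimum held a median of 5 endogenous summits, against 3 in windows further away.

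The densest place was on chromosome 4 from 145 to 148 Mb. There, 137 summits lay between 145007813 and 147167422, a stretch of 2.16 Mb. The window from 146 to 147 Mb held 65 of them, the window from 145 to 146 Mb held 59, and the window from 147 to 148 Mb held 13, all within its first part up to 147167422. The windows on either side of the run held 7 and 2 summits. Neighbouring summits in the run were a median of 10.1 kb apart and at most 77.0 kb, so the peaks formed an almost unbroken field rather than a few tight groups. Peaks of the run were large and wide, with a median of 41 tags (interquartile range 24 to 87) and a median width of 1368 bp, against 14 tags and 596 bp in autosomal peaks outside the clusters. The listed fold compares a peak's signal with a background whose source is not known here. Whether the peaks were called against that same background is not known either. The median fold in the run was 0.93, and 85 of the 137 peaks (62.0%) had a fold under 1. Tags per kb of peak had a median of 30.7, against 23.3 outside the clusters. Over 100 tags were listed for 24 of the peaks.

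The longest run lay on chromosome 14, from 3 to 9 Mb, directly at the start of the listed sequence. Its 6 windows held 26, 21, 15, 16, 21 and 15 summits, 114 in all over 5.83 Mb. Peaks here were small, with a median of 14 tags and a width of 599 bp, close to the list as a whole, and they were a median of 25.1 kb apart. The median fold was 1.29, and 18 peaks had a fold under 1. This run differed from the one on chromosome 4 in that 2 peaks, not 24, had over 100 tags. Both other runs of 3 windows were looser still. On chromosome 3 from 14 to 17 Mb there were 41 summits at a median distance of 49.0 kb, and on chromosome 16 from 14 to 17 Mb there were 38 at 50.7 kb. In both the median was 14 tags and a fold of 1.57, and no peak had a fold under 1.

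Some other windows were crowded in a small part of their length. On chromosome 13 the windows from 12 to 13 Mb and from 13 to 14 Mb held 27 and 24 summits, and 21 of the 27 lay within 100 kb. On chromosome 7 the window from 71 to 72 Mb held 26 summits, of which 11 lay between 71218935 and 71235350 and 11 between 71610847 and 71633412, with 345 kb free of summits in the widest gap of that window. On chromosome 17 the window from 3 to 4 Mb held 20 summits, and 18 of them lay between 3005347 and 3038259, a stretch of 32.9 kb. In the first window of chromosome 3, 13 of 22 summits lay within 100 kb. The first window of chromosome 16, with 21 summits, was less tight, with 7 of them within 100 kb. In it the peaks with the most tags had 633 and 630. Chromosome 5 from 146 to 147 Mb also held 21 summits, with 359 tags in all and a median of 15, at a median distance of 14.7 kb.

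**Figure D2:**
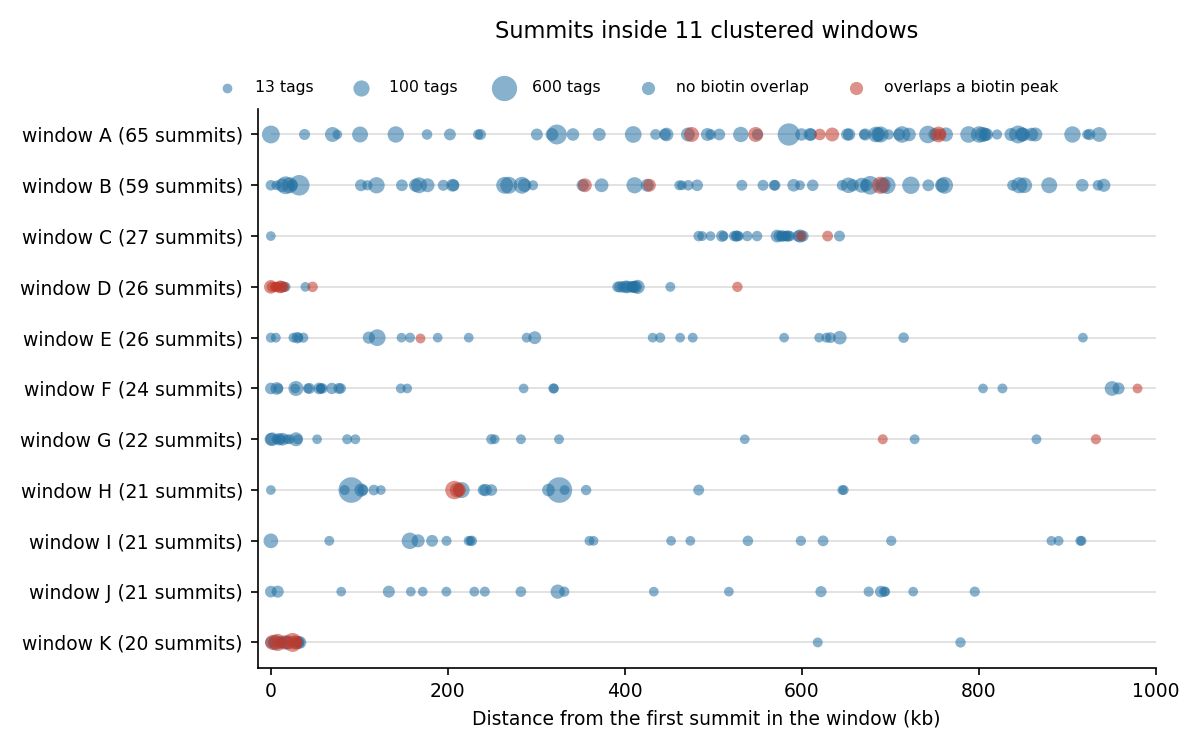
Summits in the 10 windows with the most (of 4 windows tied at 21 summits, the 3 with the most tags) and, as window K, the remaining window among the 3 with the smallest median spacing, by distance from the window's first summit in kb; point area grows with the square root of the tags, and red points overlap a biotin peak. Windows A and B are chromosome 4 from 146 and 145 Mb, C and F chromosome 13 from 12 and 13 Mb, D chromosome 7 from 71 Mb, E, I and J chromosome 14 from 3, 4 and 7 Mb, G chromosome 3 from 3 Mb, H chromosome 16 from 3 Mb and K chromosome 17 from 3 Mb; summits fill windows A and B, while 22 of 26 in D lie in 2 groups of 11 and 18 of 20 in K lie at its start.

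Spacing within the clusters covered a wide range. Neighbouring summits in the same clustered window were a median of 21.8 kb apart (interquartile range 5.52 to 64.6), against 94.9 kb (31.4 to 224) within the other windows. The choice of crowded windows brings this difference with it. Distances across window edges were left out, so the 8529 other peaks gave 6352 distances and the 1083 clustered peaks 1018. Long distances outside the clusters are therefore missing from the 94.9 kb. The spacings given for runs do count distances across edges inside the run. The distance that the same number of summits would have if placed evenly over 1 Mb gives a second measure. The median distance was below the even distance in all 65 windows, by a ratio of 0.0368 to 0.868 with a median of 0.482. A median below the even distance also arises for positions that fall without any order, and no reference for that was computed. Smallest were chromosome 17 from 3 Mb, with a median distance of 1.84 kb for its 20 summits, chromosome 7 from 71 Mb, with 1.78 kb for 38.5 kb, and chromosome 13 from 12 Mb, with 2.41 kb for 37.0 kb. At the other end, chromosome 9 from 17 to 18 Mb had 12 summits at a median distance of 72.3 kb. In 10 of the 65 windows over 50% of the summits lay within 100 kb, with the most, 92.9%, on chromosome 7 from 50 to 51 Mb.

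**Figure D3:**
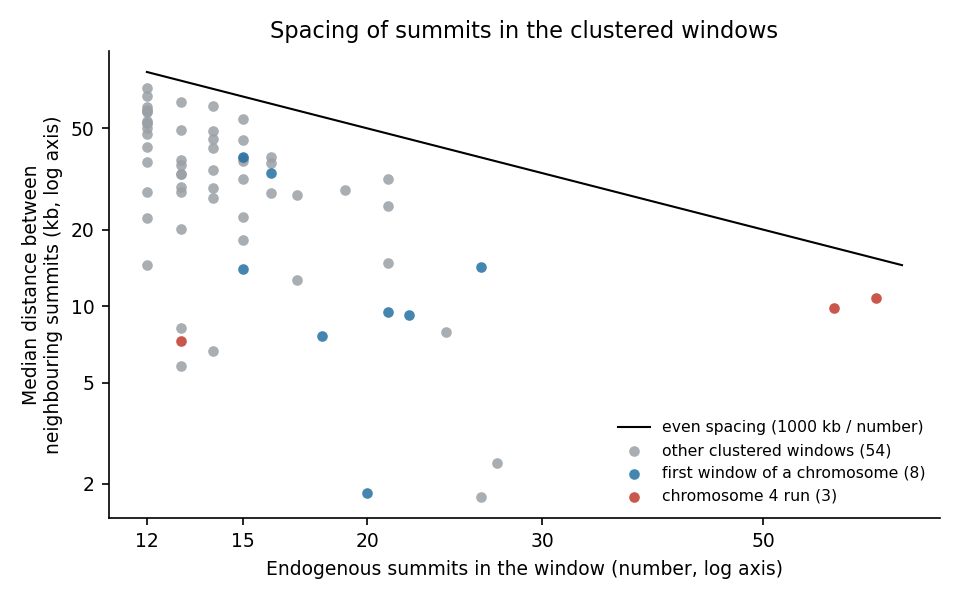
Median distance between neighbouring summits in kb (vertical, log axis) against the number of summits in the window (horizontal, log axis) for the 65 clustered windows; the line is 1000 kb divided by the number of summits, blue points are the 8 first windows of a chromosome, red points the 3 windows of the chromosome 4 run and grey points the other 54. All points lie below the line, the fullest windows of the run at ratios of 0.578 and 0.698 to it and the windows at 1.78, 1.84 and 2.41 kb far below it.

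Summits that followed each other at no more than 10 kb were joined into chains. On the autosomes 20 chains had 5 summits or more, and 16 of them consisted of peaks of the clustered windows, spread over 12 windows. A chain of this length helps a window reach 12 summits, so this share is partly fixed by the rule. The 16 chains held 128 peaks, 11.8% of those in clusters. The other 4 chains, on chromosomes 3, 6 and 8, lay in windows below the minimum. The longest chain, at the start of chromosome 17, had 18 summits with 13 to 191 tags and folds of 0.87 to 2.09. The chain on chromosome 13 from 12925014 to 12954221 had 13 summits with 13 to 44 tags. Of the paired chains of 11 on chromosome 7, the one from 71218935 had a median fold of 1.39 and 16 tags, and the one from 71610847 had 0.94 and 28 tags. Chains of 10 summits lay on chromosome 3 from 3001939 to 3032322, with a median fold of 1.71, and on chromosome 7 from 50417684 to 50461237, with 1.34.

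Peaks in clusters had somewhat more tags and a lower fold than other autosomal endogenous peaks. Their median was 15 tags (interquartile range 13 to 21) against 14 (13 to 16), a fold of 1.38 (1.13 to 1.65) against 1.57 (1.37 to 1.76) and a width of 615 bp (584 to 812) against 596 bp (578 to 653). The 460 peaks in the 36 windows with 12 to 14 summits were close to the others, with medians of 14 tags, a fold of 1.565 and 598 bp. The 623 peaks in the 29 windows with 15 or more summits had 16 tags, a fold of 1.29 and 660 bp. The difference between all clustered peaks and the others was larger in the tails. A fold under 1 was listed for 171 of 1083 clustered peaks, 15.8% (13.7 to 18.1), against 137 of 8529 others, 1.61% (1.35 to 1.90). Between 21 and 100 tags were listed for 239, 22.1% (19.6 to 24.7), against 7.29% (6.75 to 7.87). Over 100 tags were listed for 46, 4.25% (3.13 to 5.63), against 104, 1.22% (0.997 to 1.48). The smallest count of the list, 13 tags, was less frequent in clusters, 30.8% against 42.3%. A fold of 2 or more was found for 5.08% against 10.7%. A listed false discovery rate over 5% was found for 11.9% against 3.41%.

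Part of this rested on chromosome 4. Without the run from 145 to 148 Mb the remaining 946 clustered peaks had a median of 14 tags, a fold of 1.47 and a width of 602 bp, and 86 of them, 9.09% (7.34 to 11.1), had a fold under 1. The run alone supplied 85 of the 171 peaks with a fold under 1 and 24 of the 46 with over 100 tags, from 137 of 1083 peaks. The 153 peaks of the 8 first windows had a median of 15 tags (14 to 28) and a fold of 1.38, and the 793 peaks in the remaining 54 windows had 14 tags and a fold of 1.48. Across the 65 windows, Spearman's rho between the number of summits and the median fold was −0.38, and between the median spacing and the median fold 0.51. Windows draw on the same library and some adjoin. In 2 windows, both on chromosome 4, the median fold was under 1. Within clusters, tags and fold did not follow the distance to the nearest neighbour in a single order. The 210 peaks with a neighbour within 2 kb had a median of 15 tags and a fold of 1.335, those at 2 to 10 kb 18 tags (14 to 39) and 1.195, those at 10 to 50 kb 14 tags and 1.48, and those further away 14 tags and 1.57. Outside the clusters the medians were 14 tags and a fold of 1.57 in all 4 classes.

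**Figure D4:**
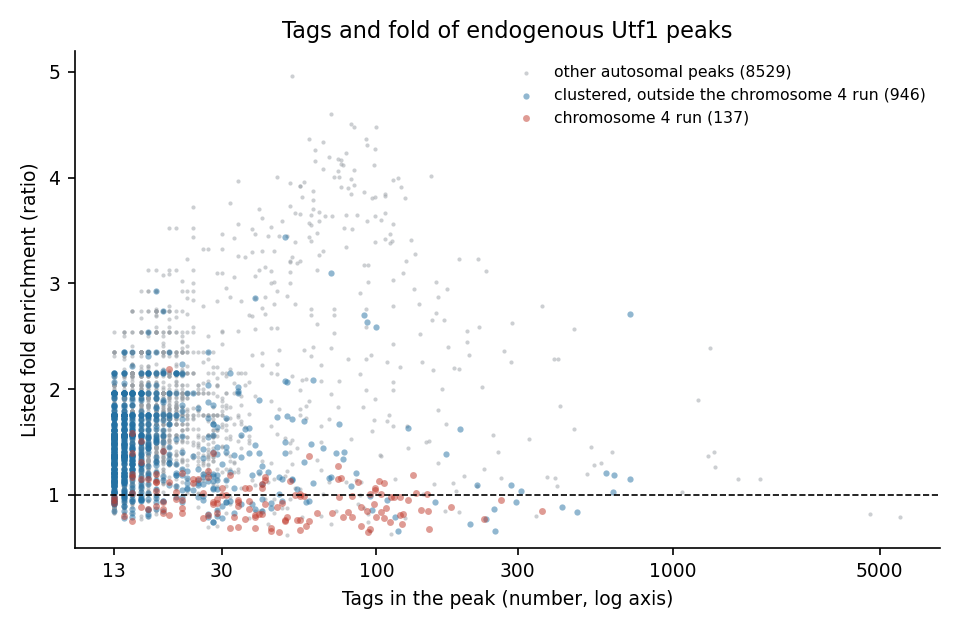
Listed fold enrichment (vertical) against tags per peak (horizontal, log axis) for 9612 autosomal endogenous peaks, in grey outside clusters, in blue in clusters and in red in the chromosome 4 run; the dashed line marks a fold of 1. Red points spread to high tag counts at folds around and under 1, with 85 of 137 under the line.

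The clustered peaks with the largest folds were small or moderate in tags. The largest fold, 3.44, was on chromosome 1 at 46788928 to 46789691, a peak of 49 tags (exact Poisson 95% interval 36.3 to 64.8). A peak of 70 tags (54.6 to 88.4) on chromosome 13, from 13952672 to 13953786, reached 3.10. The third was on chromosome 9, from 35084399 to 35085030, with 18 tags (10.7 to 28.4) and 2.93. The other 2 of the leading 5, with folds of 2.86 and 2.74, lay on chromosome 3 and spanned 3014629 to 3015764 and 7486466 to 7487216. None of these 5 overlapped a biotin peak, and they lay at distances of 2.5 to 73.9 kb from the closest biotin peak. Of all clustered peaks only 15.1% overlapped one, so the lack of overlap does not set these 5 apart. Elsewhere on the autosomes folds reached 4.96. The clustered peaks with the most tags, a selection made after the values were seen, had low folds in 4 of 5 cases. The leading peak, with 721 tags and a fold of 1.15, spanned 3016309 to 3019105 of chromosome 4. The next, with 719 tags and a fold of 2.71, spanned 35112260 to 35113693 of chromosome 9.

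The biotin list, which had no part in choosing the windows, was less dense in most clusters than in the average window. Clustered windows held a median of 27 biotin peaks (interquartile range 22 to 40, range 10 to 201), against 37 (15.8 to 91) in the other windows, and biotin peaks covered a median of 3.85% and 4.36% of the window. The spread was smaller in the clusters at both ends. Over 80 biotin peaks were present in 5 of 65 clustered windows (7.69%) and in 688 of 2360 others (29.2%), and 10 or fewer in 1 (1.54%) and in 283 (12%). The others include some windows in which neither list has a summit. The number of biotin peaks did not fall steadily with the number of endogenous summits. Its median was 83 in windows with no endogenous summit, 65 with 1 or 2, 32 with 3 to 5, 21 with 6 to 8 and 18 with 9 to 11, and then stood at 25.5 with 12 to 14 and 28 with 15 or more. The 95% intervals of the last 3 medians over windows were 17 to 22, 23 to 38 and 22 to 36. The median share of the window covered by biotin peaks in these 3 classes was 2.09%, 3.03% and 4.39%. The last was close to the 4.36% of all windows outside clusters. Windows beside a cluster that did not reach the minimum had a median of 28.5 biotin peaks.

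**Figure D5:**
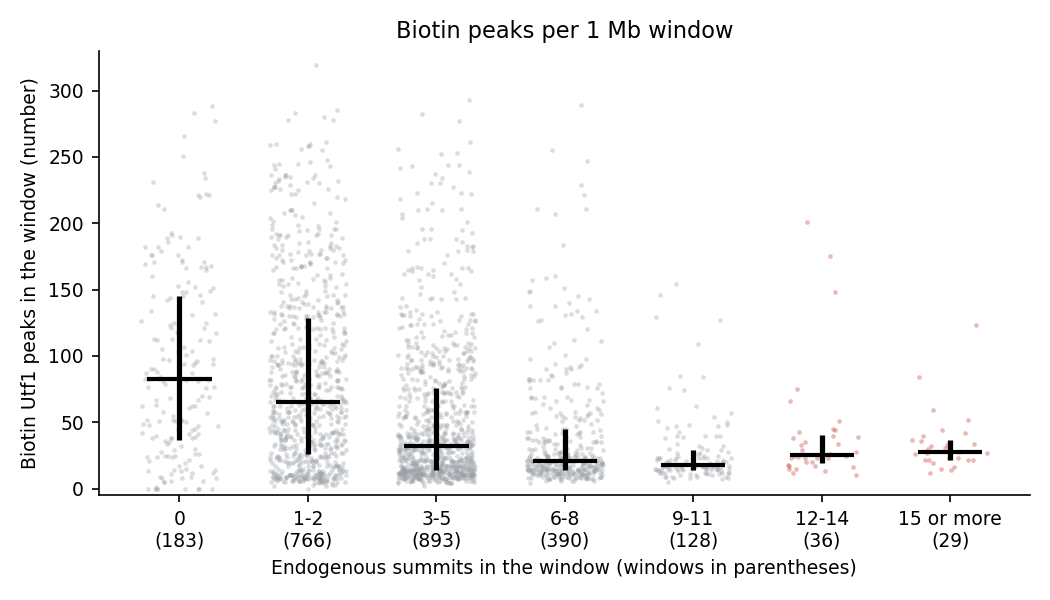
Biotin Utf1 peaks per 1 Mb window (vertical) by class of endogenous summits in the window (horizontal, number of windows in parentheses); each point is a window, horizontal bars are medians and vertical bars interquartile ranges, with clustered windows in red. The median falls from 83 to 18 up to the class with 9 to 11 summits and is 25.5 and 28 in the clustered classes.

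A few clusters lay where biotin peaks were dense. The most biotin peaks were found on chromosome 8 from 126 to 127 Mb, with 201 beside 13 endogenous summits. Next came chromosome 4 from 147 to 148 Mb, with 175 beside 13, and chromosome 8 from 74 to 75 Mb, with 148 beside 13. The endogenous summits in these 3 windows were tight, at median distances of 8.18, 7.32 and 5.79 kb. In these windows 0, 2 and 2 of the 13 peaks overlapped a biotin peak. The fewest biotin peaks were found on chromosome 7 from 60 to 61 Mb, with 10, and on chromosome 4 from 121 to 122 Mb and chromosome 3 from 16 to 17 Mb, with 12 each. Across the 65 windows, Spearman's rho between the spacing of endogenous summits and the number of biotin peaks was −0.46, and between the numbers of endogenous summits and biotin peaks 0.13. Within windows the crowded part and the rest held biotin peaks at similar density. In the 100 kb with the most endogenous summits there were 3.59 biotin peaks per 100 kb, against 3.85 in the rest of the same windows, and the crowded part had the higher density in 33 of 65 windows.

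Biotin peaks inside clusters had a higher median of tags than those elsewhere, at about the same fold. The 2484 biotin peaks in clustered windows had a median of 62 tags (36 to 122), a fold of 4.16 and 50.7 tags per kb, against 53 tags (34 to 108), a fold of 4.14 and 46.9 tags per kb for the 147014 elsewhere on the autosomes. By window, a median above 100 tags per biotin peak was found in 11 of 65 clusters, 16.9% (8.76 to 28.3), against 47 of 2333 other windows with at least 5 biotin peaks, 2.01% (1.48 to 2.67). Most of these were among the fullest windows. With 15 or more endogenous summits there were 9 of 29, 31.0% (15.3 to 50.8), with 12 to 14 there were 2 of 36, 5.56% (0.680 to 18.7), and with 9 to 11, just below the minimum, 5 of 128, 3.91% (1.28 to 8.88). The median over windows of the tags per kb was 51.7 in clusters and 52.0 with 9 to 11 summits, so that measure did not set clusters apart from the windows below them. Of the 11, 5 belonged to the chromosome 14 run, with medians of 109, 142.5, 119, 135 and 109.5 tags from 3 to 8 Mb, and 2 to the chromosome 4 run, with 147 from 145 Mb and 143.5 from 146 Mb. The highest was chromosome 8 from 19 to 20 Mb, with a median of 190 tags, a fold of 3.79 and 121 tags per kb. There, 7 of the 19 endogenous peaks had over 100 tags. The chromosome 14 window from 43 to 44 Mb had 174 tags and a fold of 7.60. Without the chromosome 4 run the share of windows above 100 tags was 14.5% (6.86 to 25.8).

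Clustered peaks lay on biotin peaks somewhat less often than other autosomal endogenous peaks. Of 1083, 164 overlapped a biotin peak by at least 1 bp, 15.1% (13.1 to 17.4), against 1634 of 8529, 19.2% (18.3 to 20.01), a difference of −4.02 percentage points (normal approximation, −6.31 to −1.72). Without the chromosome 4 run the difference was −2.98 points (−5.48 to −0.494). Both intervals treat peaks as independent, although many lie in the same runs, so they are too narrow and neither is a test. The difference without the chromosome 4 run still included the chromosome 14 run, where 3 of 114 peaks overlapped. It also included chromosome 13 from 12 to 14 Mb, with 3 of 51. The difference without these places was not computed, so a lower share cannot be called general to the clusters. The lower share was not particular to the clusters. It was 21.7% (19.3 to 24.1) in windows with 1 or 2 endogenous summits, 20.3% (18.9 to 21.6) with 3 to 5, 18.1% (16.7 to 19.6) with 6 to 8 and 15.95% (13.97 to 18.1) with 9 to 11, close to the clusters. The median distance to a biotin peak was 7.02 kb for clustered peaks and 3.39 kb for the others. The shares were also compared in windows with similar numbers of biotin peaks. With 11 to 20 biotin peaks per window they were 13.9% (9.49 to 19.3) and 17.3% (15.8 to 18.8), with 21 to 40 they were 14.4% (11.8 to 17.5) and 17.8% (16.1 to 19.5), and with 41 to 80 they were 16.3% (11 to 22.8) and 18.6% (16.5 to 20.8). Without the chromosome 4 run the clustered share with 21 to 40 was 16.3% (13.1 to 19.8). With 81 to 150 the clustered and other shares were 27.8% (16.5 to 41.6) and 21.7% (19.3 to 24.2). The clustered peaks of that class came from only 3 windows. Of the 15 that overlapped, 11 lay in 1 window, on chromosome 7 from 71 to 72 Mb. Above 150 only 26 clustered peaks from 2 windows were available, of which 2 overlapped, 7.69% (0.946 to 25.1), against 32.1% (28.1 to 36.2). Both of the overlapping peaks came from the chromosome 4 window from 147 Mb. The share in clusters was the higher only with 81 to 150. The intervals of both shares overlapped in every class except the one above 150. These intervals also treat peaks as independent, so their overlap or separation is no test. Where peaks overlapped, summits lay within 250 bp in 33 of 164 cases in clusters, 20.1% (14.3 to 27.1), and in 428 of 1634 elsewhere, 26.2% (24.1 to 28.4).

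Sharing with the biotin list differed greatly from cluster to cluster. In the chromosome 14 run 3 of 114 peaks overlapped a biotin peak, 2.63% (0.546 to 7.5), and none of the 73 in the windows from 4 to 8 Mb did, although biotin peaks covered 4.39 to 5.58% of these windows. In the chromosome 4 run it was 11 of 137, 8.03% (4.08 to 13.9), and on chromosome 13 from 12 to 14 Mb 3 of 51, 5.88% (1.23 to 16.2). These 3 places were singled out after their values were seen. In contrast, 11 of 26 peaks overlapped on chromosome 7 from 71 to 72 Mb. The chains in that window differed: 9 of the 11 peaks from 71218935 overlapped, on 4 biotin peaks, and none of the 11 from 71610847 did, where no biotin peak was listed. In the chain at the start of chromosome 17, 7 of 18 peaks overlapped, on 4 biotin peaks. The first windows that were clustered had 31 of 153 peaks on biotin peaks, 20.3% (14.2 to 27.5), and those that were not had 4 of 63, 6.35% (1.76 to 15.5). In 8 of the 65 windows no peak overlapped.

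Among the clustered peaks that overlapped, the largest fold, 2.54, belonged to a peak of 17 tags (9.90 to 27.2) that spanned 67631732 to 67632278 of chromosome 8. Its summit lay 49 bp from that of a biotin peak of 51 tags and fold 6.89 that spanned 67631777 to 67632589. The other 4 of the leading 5 had folds of 2.31 to 2.35 and 14 to 27 tags, and their summits lay 363 to 1009 bp from the biotin summit. The biotin peak with the most tags among these, 325 with a fold of 7.71, lay on chromosome 1 at 119149670 to 119151793.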

How the data were processed

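The authors deposited a peak list for each precipitation, 2 in all. The submitters' processing notes name the build mm9 and, with no roles, R 2.15.2 and BWA 0.5.7. The sources used here do not give the caller, its settings or its control. The authors' tags are unscaled whole-number counts per peak, per the file headers. Peak strength is the authors' score, per the file headers the −log10 of a p-value multiplied by 10. The authors' fold enrichment is a ratio and the false discovery rate a percent, per the file headers. All are the authors' values and describe peaks within a list.

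Summits were placed at start plus summit minus 1 and assigned to windows by whole Mb on chromosomes 1 to 19, from the first to the last window with a summit of either list. Named windows were the 10 with the most summits (ties by more tags), runs of 3 or more, the 3 with the most and fewest biotin peaks and the 3 with the smallest spacing. Named peaks were the 5 with the largest fold, overall and with a biotin overlap. Chains, first windows, dense 100 kb parts and biotin tags by window were described after the values were seen. The members and settings were chosen with earlier results of these data known. Intervals of medians come from binomial order statistics. Counting and overlap were tested on simulated lists. An annotation or genome of mm9 was not used here, so no genes are named and no sequences are printed. Calculations used matplotlib 3.10.9, scipy 1.17.1, pandas 2.3.3, numpy 2.4.6 and Python 3.11.15.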

Additional observations from a re-analysis of the deposited data

Results flagged for a closer look

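Chromosome X and unplaced sequence were outside the comparisons, and both held windows with 12 or more endogenous summits. On chromosome X there were 5 such windows of 164, 3.05%, near the 2.68% of the autosomes, with 78 of 563 peaks. They lay at 4, 72, 73, 92 and 166 Mb, with 14, 17, 12, 20 and 15 summits, and held 16, 36, 18, 24 and 14 biotin peaks. The window from 72 to 73 Mb had a median spacing of 2.00 kb, a median of 28 tags and a fold of 1.76, and 0 of its 17 peaks overlapped a biotin peak. In the window from 92 to 93 Mb the median was 20.5 tags and a fold of 1.07. On Y and unplaced sequence there were 5 such windows, with 23 to 62 summits and medians of 17 to 375 tags. On unplaced sequence positions follow an arbitrary order of fragments, so spacing there has no genomic meaning. There were no control values to set beside these numbers.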

How the results depend on the processing

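The 15 results were recomputed as 94 alternative values. Only differences between clustered and other windows or peaks could change direction, and none did (0). Of all values, 58 remained within the error of the result or a factor of 1.5 of its count, and 36 moved further. Some of the 58 were fixed in advance, since leaving out the chromosome 4 run takes out nothing outside the clusters. The number of clustered windows, 65 with 1083 peaks, became 141 with 1875 at 10 or more summits, 29 with 623 at 15 or more, 268 with 2155 for 6 or more in 500 kb, 12 with 458 for 24 or more in 2 Mb, 20 with 410 without peaks of the smallest tag count and 3 with 48 at a listed false discovery rate up to the median. Shorter lists and other minimums change these counts by construction. Shifting windows by 500 kb left 63 windows, but 702 of the 1083 peaks stayed members (64.8%), so membership depends on where windows begin. The median of 27 biotin peaks in clusters against 37 elsewhere, a difference of −10, became 15 against 20 (−5) for the stronger 50% by fold, 15 against 17 (−2) for the stronger 50% by strength, and 3.85% against 4.36% (−0.51 points) by covered length. The shares on biotin peaks, 15.1% and 19.2%, became 10.4% and 12.9% with 50% of the shorter peak, 3.05% and 5.02% with summits within 250 bp, 8.40% and 13% for the stronger 50% by fold, and 23.8% and 31.3% with peaks within 1 kb, where the difference was −7.48 points. Without the chromosome 4 run the spacing became 24.9 kb, and the fold and width of members became 1.47 and 602 bp. At 15 or more summits the tags, fold and width of members became 16, 1.29 and 660 bp. Leaving out the chromosome 4 run or the first windows was chosen after seeing the data. No paired analysis was possible because each group has 1 library, and no replicate could be left out. Unknown depth limits every statement on the number of peaks.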
